A study of Mus musculus with 12 samples.

Results

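The mouse records of a microRNA (miRNA) probe panel that carry the names miR-297, miR-466, miR-467 and miR-669 were described as designed sequences. A record was a member when any of its names had 1 of these 4 numbers, and 33 of the 566 mouse records, or 5.83%, met this rule. The names are those of a miRNA cluster inside the gene Sfmbt2. The panel, mouse version 1.5 of the nCounter miRNA assay, was used to profile Kupffer cells, the macrophages that reside in the liver sinusoids, around partial hepatectomy in Balb/C mice. The labels give 12 samples in 4 groups: 3 pools before surgery, 3 at day 1, 2 at day 3 and 4 at day 7. Each pool held sorted cells of 5 animals, with that number queried in the series text, and 100 ng of total RNA entered the assay. The file analysed defines the probes and holds 0 sample values, so no level of any member in Kupffer cells was analysed here. The values below are properties of a fixed set of sequences. They have no replicates and no sampling error, and no test was made. Members were chosen by number, and miRNA numbers can follow likeness of sequence, so likeness within the set is partly given by that choice.

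miRNAs are cut from hairpin precursors, which can release a mature strand from the 5′ arm (5p) or the 3′ arm (3p). Bases 2 to 8 of the mature strand, the seed, chiefly set which mRNAs it pairs with. Sfmbt2 encodes a polycomb-group protein and is an imprinted gene, expressed from the paternal copy in extraembryonic tissue. The cluster in its intron is specific to rodents and consists of many similar hairpins. Members of such a cluster raise a particular question for a hybridisation panel, namely how far its records can be told apart by sequence.

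The recurring sequence types of the set are shown first, because the later comparisons turn on them. Targets are written as DNA from the 5′ end, as the library file gives them, with the seed in capitals. The largest group of members with a common seed joined 3 of the 4 numbers:
miR-297b-3p: tATACATAcacacatacccata
miR-466a-3p+miR-466b-3-3p: tATACATAcacgcacacataaga
miR-466d-3p: tATACATAcacgcacacatag
miR-467g: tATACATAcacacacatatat

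A different group was rich in T and G where these are rich in A and C. It took in the miR-297 records other than miR-297b-3p, all with the seed TGTATGT:
miR-297a+miR-466f+miR-669b: aTGTATGTgtgcatgtgcatgt
miR-297b-5p: aTGTATGTgtgcatgaacatgt
miR-297c: aTGTATGTgtgcatgtacatgt

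The miR-467 targets that began with TAAGTG or a near variant formed a further type, shown because some of them approach the seed of the miR-290 and miR-302 miRNAs:
miR-467a: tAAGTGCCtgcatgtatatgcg
miR-467c: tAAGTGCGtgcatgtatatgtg
miR-467d: tAAGTGCGcgcatgtatatgcg
miR-467b: gTAAGTGCctgcatgtatatg
miR-467e: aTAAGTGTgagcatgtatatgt
miR-467h+miR-669d+miR-669l: aTAAGTGTgtgcatgtatatgt

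The first question was whether the names mark the Sfmbt2 cluster. Names were looked up among the RefSeq genes of GRCm38.p6. That table lists 82 miRNA genes with the 4 numbers, and 72 of them lie within the span of Sfmbt2. No miRNA gene inside Sfmbt2 carried another number. By number, 5 of the 72 genes are named for miR-297, 24 for miR-466, 14 for miR-467 and 29 for miR-669. Of the 39 member names, 37 matched a gene and 2, both arms of miR-466a, did not. A gene listed as Mir466, without a letter, lies inside Sfmbt2 and was matched by no name. Whether it is the gene of miR-466a was not examined. Of the matched names, 28 had genes inside Sfmbt2 alone, 3 had genes inside and elsewhere, and 6 had genes elsewhere alone.

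The names therefore marked the cluster for most records, but not for all. At least 1 name of 28 records had a gene inside Sfmbt2. This rests on the names, since no target was placed inside Sfmbt2 by its sequence here. The 5 other records, miR-466i, miR-466j, miR-466k, miR-467f and miR-467g, were named for genes outside it. The target sequence of each of these 5 matched a RefSeq mature miRNA exactly. On GRCm38.p6, miR-466i lies at chr13:17747552-17747573 on the plus strand and miR-466j at chr10:60960802-60960824 on the plus strand. miR-466k lies at chr3:85467396-85467418 on the plus strand, where its target starts at base 20 of a hairpin of 122 bases. miR-467f lies at chr11:69635419-69635439 and miR-467g at chr5:34732872-34732892, both on the minus strand. Whether these sites are in exons or introns was not analysed here.

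2 joint records, miR-297a+miR-466f+miR-669b and miR-467h+miR-669d+miR-669l, combined genes inside and outside the cluster. The target of miR-297a with its partners also occurred in the hairpin of Mir297-1, at chr7:10958477-10958498 on the minus strand. The target of miR-467h with its partners matched mature miR-467h at chr9:115381898-115381919 on the plus strand, whereas miR-669d and miR-669l have genes inside Sfmbt2. By name, neither record has a single genomic origin. The same holds for the single-name record miR-466f-5p, with Mir466f-1, Mir466f-2 and Mir466f-3 inside Sfmbt2 and Mir466f-4 elsewhere.

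Several records stood, by name, for more than 1 gene copy. The name miR-669a corresponded to 12 genes and miR-467a to 10, all of them inside Sfmbt2. miR-466c, with 3 gene copies, and miR-669m, with 2, were further cases. Of the 72 cluster genes, 56 were named by a record and 16 were not. The 16 included 7 copies of Mir466b other than the one on the panel, as well as Mir466, Mir466m, Mir466n, Mir466o, Mir466p, Mir669c and Mir669k. The match was by name, so a target of the panel may still have the sequence of a gene that it does not name. Nor was it shown that each named copy carries the target sequence.

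Joint records were a minority of the set but more frequent than outside it, at 4 of 33 members against 5 of 533 other mouse records. Members accounted for 4 of the 9 joint mouse records on the panel and for 10 of the 20 names on them. Of these 4 records, 2 joined miR-466 with miR-466: miR-466a-3p with miR-466b-3-3p, and miR-466a-5p with miR-466e-5p. The other 2 crossed the numbers, and each carried 3 names. The 29 remaining members named a single miRNA. By number, 4 records carried a miR-297 name, 13 a miR-466 name, 8 a miR-467 name and 11 a miR-669 name. These sum to more than the member count because of the records that cross numbers.

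Arms were rarely stated in the names. The suffix was 3p in 3 member records, 5p in 6 and missing in 24, or 72.7%. In the other 533 mouse records it was missing in 75.8%. miR-297b and miR-466d had a record for each arm, and miR-466a had a joint record for each arm.

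The lengths of the member targets did not set them apart. They ran from 21 to 24 bases with a median of 22, which was also the median of the other mouse targets. In the set 6 targets had 21 bases, 20 had 22, 6 had 23 and 1, miR-669h-5p, had 24. The other mouse targets spanned a wider range, 16 to 27 bases.

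GC content was lower in the members. The median was 38.1%, against 47.8% in the other mouse targets. The lowest value was 22.7%, in miR-466l, and the highest was 50%, reached by miR-467d among others. GC was under 40% in 19 of the 33 members, or 57.6%, compared with 19.1% of the other targets. Leaving out the joint records gave the same median. The target with the lowest GC content is shown with the seed in capitals:
miR-466l: tATAAATAcatgcacacatatt

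Composition separated the set more sharply than GC content did. The share of T and G together fell into 2 ranges with nothing between them. In 12 members it was 13.6% to 36.4%, and these are called AC-rich here. In the other 21 it was 59.1% to 82.6%, and these are called TG-rich. The boundary was drawn after the values were seen. Among the other mouse targets, 298 of 533, or 55.9%, lay in the interval that the members left empty. All 3 members with a 3p suffix were AC-rich and all 6 with a 5p suffix were TG-rich. The 24 without a suffix divided into 9 AC-rich and 15 TG-rich, and their arms were not assigned from composition.

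The members were built largely of alternating purines and pyrimidines, as in the dinucleotide repeats TG and CA. The longest alternating run had a median of 18 bases in the members and of 4 in the other mouse targets. A run of 12 bases or more occurred in 29 of 33 members, or 87.9%, and in 4 other targets, or 0.750%. Those 4 were miR-1187, miR-574-5p, miR-468 and miR-568. In 8 members the alternation covered the whole target, the longest being miR-669f with 23 bases. No other mouse target alternated from end to end. The members with runs under 12 bases were miR-669g with 9, miR-669h-5p with 7, miR-669j with 9 and miR-669m with 8. All 4 were miR-669 records. The longest run and the 2 members that alternate least by run length or by covered share are shown, again with the seed in capitals:
miR-669f: cATATACAtacacacacacgtat
miR-669g: tGCATTGTatgtgttgacatgat
miR-669h-5p: aTGCATGGgtgtatagttgagtgc

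Runs of at least 6 alternating bases covered a median of 87.0% of each member target. The lowest value, 39.1%, belonged to miR-669g. In the other mouse targets the median was 0%, and 408 of the 533 had no such run. Short repeat words followed the composition classes. TGTGTG was present in 14 members, all TG-rich, and in 8 other targets, or 42.4% against 1.50%. ACACAC was present in 7 members, all AC-rich, and in 5 other targets, or 21.2% against 0.938%. ATACAT occurred in 7 AC-rich members and in 1 other target, miR-369-3p, or 21.2% against 0.188%. On the opposite strand the first word was found in 11 of the 33 members and 5 of the 533 other targets. The second was found in 11 and 7 of these, and ATACAT in 9 and 3. TGTGTG and ACACAC overlap themselves in longer repeats.

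A different word was the most frequent 6-base word of the set. GCATGT, tied with TGCATG, which overlaps it by 5 bases, was present in 15 of 33 members, or 45.5%. In the other mouse targets GCATGT was found once, in miR-1983. All 15 members with it were TG-rich. Both words were chosen because they were frequent in the members, so the comparison with the other targets is a description. The reverse complement of the first word occurred in 4 of the 33 members and 3 of the 533 other targets.

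GCATGT stood at different distances from the 5′ end, as these members, with the word in capitals at its first occurrence, show:
miR-466j: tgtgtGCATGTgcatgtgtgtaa
miR-467c: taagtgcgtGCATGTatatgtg
miR-669a: agttgtgtgtGCATGTtcatgt
miR-669o: tagttgtgtgtGCATGTttatgt
miR-669e: tgtcttgtgtgtGCATGTtcat

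It began at base 6 in 2 members, at base 10 in 3, at base 11 in 6, at base 12 in 3 and at base 13 in 1. The 15 targets had 11 different seeds. At base 11 alone, 6 targets had 4 seeds. Targets with this word thus often presented different bases 2 to 8, as did the set as a whole, with 22 seeds in 33 members. Where the word began at base 6, it overlapped the seed. In 2 members, the word occurred more than once.

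Seeds were shared more often in the set than outside it. Of the 33 members, 19, or 57.6%, had the same bases 2 to 8 as another member. Among the other 533 mouse targets, 150, or 28.1%, shared a seed with another of their own. The members had 22 different seeds in all. With miR-467a, which shared its seed with non-members, 20 members had a partner on the panel and 13 had none.

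There were 8 seeds with more than 1 member. ATACATA had 4 targets and TGTATGT had 3, as listed above. The 6 others had 2 members each. These were ATGTGTG (miR-466a-5p+miR-466e-5p and miR-466c-5p), GTGTGTG (miR-466d-5p and miR-466k), GTGTGCA (miR-466h and miR-466j), AAGTGCG (miR-467c and miR-467d), TAAGTGT (miR-467e and miR-467h+miR-669d+miR-669l) and GCATATA (miR-669i and miR-669j). In 7 of these 8 seeds all member records had a number in common. The exception was ATACATA, which joined miR-297, miR-466 and miR-467. A number did not stand for a single seed, and the 8 miR-467 records had 6 different seeds.

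2 seeds were common to members and other mouse miRNAs. miR-467a had AAGTGCC, the seed of miR-290-3p and miR-292-3p, from a cluster known for its expression in embryonic stem cells. miR-466a-5p+miR-466e-5p and miR-466c-5p had ATGTGTG, the seed of miR-1187:
miR-467a: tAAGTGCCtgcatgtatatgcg
miR-290-3p: aAAGTGCCgcctagttttaagccc
miR-292-3p: aAAGTGCCgccaggttttgagtgt
miR-466c-5p: gATGTGTGtgtgcatgtacata
miR-1187: tATGTGTGtgtgtatgtgtgtaa

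The likeness of miR-467a to miR-290-3p and miR-292-3p was limited to the 5′ end. Outside the seed they differed, and miR-467a was the member nearest to each, at 11 mismatches for miR-290-3p and 10 for miR-292-3p. With the seed cut to bases 2 to 7, AAGTGC was common to 12 targets. These were miR-467a, miR-467c and miR-467d together with 9 non-members of the miR-290 and miR-302 groups, among them miR-291a-3p, miR-294, miR-295 and miR-302a. miR-302a and miR-302d, at 5 mismatches each, were the non-members nearest to miR-467c.

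Some seeds reappeared in other members displaced by a base or 2. Allowing a shift of 1 or 2 bases, 18 of 33 members, or 54.5%, had a seed that matched another member in this displaced way, in 15 pairs. Among the other 533 targets 106, or 19.9%, had such a partner among themselves. At a shift of 1 base alone the shares were 6 of 33, or 18.2%, and 14.6%. The excess in the members therefore came mainly with the shift of 2 bases. Whether it arises from dinucleotide repeats was not tested.

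The displaced seeds included 3 pairs at 1 base: miR-467a with miR-467b, miR-669a with miR-669o, and miR-669m with miR-669f. In the lines below capitals mark the same 7 bases in the target that starts later and in the one that starts earlier:
miR-467a: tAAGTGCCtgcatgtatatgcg
miR-467b: gtAAGTGCCtgcatgtatatg
miR-669a: aGTTGTGTgtgcatgttcatgt
miR-669o: taGTTGTGTgtgcatgtttatgt

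At 2 bases, miR-669f held the seed ATACATA of miR-297b-3p, miR-466a-3p+miR-466b-3-3p, miR-466d-3p and miR-467g. miR-466d-5p and miR-466k, with the seed GTGTGTG, matched miR-466a-5p+miR-466e-5p and miR-466c-5p in the same way. GTGTGTG is itself a TG repeat, and it was also displaced by 2 bases in miR-1187 and miR-574-5p. miR-467b matched miR-290-3p and miR-292-3p at a shift of 1 base, and miR-669g matched miR-33. Counting equal and displaced seeds together, 28 members, or 84.8%, had a partner in the set. The 5 without one were miR-466g, miR-466l, miR-669e, miR-669g and miR-669h-5p. This combined count was not made for the other mouse targets. Taken separately, 28.1% of those had an equal seed among themselves and 19.9% a displaced one.

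Closeness over the whole target was counted as mismatches between targets aligned at their 5′ ends, without gaps and over the length of the shorter one. Each member's nearest member was at a median of 3 mismatches, and its nearest other mouse target was at a median of 8. Of the 33 members, 30 were nearer to a member than to any other target. The exceptions were miR-669e and miR-669g, which had a nearer non-member, and miR-669h-5p, which had both at 9 mismatches. For comparison, the nearest target of any kind was at a median of 8 mismatches for the other mouse records. The smallest distance between a member and a non-member was 4 bases, between miR-466j and miR-1187. As stated above, the choice of members by number partly gives their closeness to each other.

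By mismatches in register from the 5′ end, the set was not uniformly similar. Over all 528 pairs of members the median was 17 mismatches, against 16 between members and other targets. AC-rich members were closer among themselves, with a median of 11 over 66 pairs. Pairs of TG-rich members had a median of 17 over 210 pairs, the same as pairs across the classes. In this comparison the closeness of members was a matter of a few near partners. It counts members with a common stretch at different positions as distant, so it does not measure likeness of the set as a whole.

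At a single mismatch there were 5 pairs, which involved 9 members, or 27.3%. Among the other mouse targets 42 of 533, or 7.88%, were in such a pair. Positions are counted from 1 at the 5′ end, and the base of the first-named target comes first. miR-297a+miR-466f+miR-669b and miR-297c differed by G17A, and miR-297b-5p and miR-297c by A16T. miR-466a-3p+miR-466b-3-3p and miR-466d-3p differed by A21G within the length they share. miR-466h and miR-466j differed by T14A, and miR-467e and miR-467h+miR-669d+miR-669l by A10T. In each of the 5 pairs the seed was the same. The last 2 pairs are shown with the differing base in capitals:
miR-466h: tgtgtgcatgtgcTtgtgtgta
miR-466j: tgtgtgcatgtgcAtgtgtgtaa
miR-467e: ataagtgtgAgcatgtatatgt
miR-467h+miR-669d+miR-669l: ataagtgtgTgcatgtatatgt

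With up to 2 mismatches there were 11 pairs among 16 members, or 48.5% of the set, compared with 13.3% of the other targets. In 2 of the added pairs a difference fell within the seed. miR-467a differed from miR-467c by C8G and C21T, and from miR-467d by C8G and T9C. miR-467c and miR-467d, with a common seed, differed by T9C and T21C. miR-669i and miR-669j differed by A10T and T19A, and miR-466a-5p+miR-466e-5p and miR-466c-5p by T1G and A12G. No member had a non-member within 2 mismatches.

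Comparison in register from the 5′ end missed members that share a long stretch at different positions. Counting identical stretches of at least 16 bases at any position, a setting chosen after seeing the data, there were 10 pairs of members. These involved 15 of the 33 members, or 45.5%. Among the other mouse targets, 37 of 533, or 6.94%, were in such a pair, in 24 pairs. Only 2 of the member pairs were in register, and 8 were displaced by 1 to 6 bases. miR-669e was 12 mismatches from miR-669a in register, a distance tied as its nearest with miR-669g and miR-669h-5p, and had 18 consecutive bases in common with miR-669a. miR-467a and miR-467b had 20 bases in common and 19 mismatches in register. miR-466a-5p+miR-466e-5p and miR-466k had 19 bases in common and 10 mismatches in register. Capitals mark the common stretch:
miR-669a: agTTGTGTGTGCATGTTCATgt
miR-669e: tgtcTTGTGTGTGCATGTTCAT
miR-466a-5p+miR-466e-5p: taTGTGTGTGTACATGTACATa
miR-466k: TGTGTGTGTACATGTACATgtga

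Measured this way, the longest stretch shared with another member had a median of 15 bases, and the longest shared with a non-member had a median of 9. For the other mouse targets, the longest stretch shared with any target had a median of 9 bases. miR-669h-5p stood apart again. Its longest stretch in common with a member was 6 bases, against 9 with let-7a, let-7e and let-7f. Of the 33 members, 28 shared a longer stretch with a member than with any other target. 2, miR-669h-5p and miR-669j, had a longer one with a non-member, and 3 had equal lengths.

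Because the set holds TG-rich and AC-rich targets, members were also compared as complementary strands. The longest uninterrupted antiparallel stretch of Watson-Crick pairs with any other mouse target had a median of 12 bases in the members and 8 in the other targets. A stretch of 12 or more was found for 20 of the 33 members, or 60.6%, and for 8 of the other 533, or 1.50%. There were 18 pairs of members at this length. In 17 of them a TG-rich target faced an AC-rich one, and in 1 both were TG-rich. The longest stretch between members was of 14 bases, as in miR-297c with miR-466l. Capitals mark the complementary bases, each target read from its own 5′ end:
miR-297c: atgTATGTGTGCATGTAcatgt
miR-466l: tataaaTACATGCACACATAtt

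miR-466g, AC-rich, was complementary over 12 or more bases to several TG-rich members, among them miR-466c-5p, miR-669a, miR-669e and miR-669o at 13 bases each. The longest stretch of all involved a non-member. miR-466i and miR-1187 were complementary over 15 bases, from the first base in each:
miR-466i: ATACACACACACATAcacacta
miR-1187: TATGTGTGTGTGTATgtgtgtaa

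miR-1187 was also complementary to miR-669f over 14 bases and to miR-467f and miR-467g over 13. Binding between targets, or of a target to the probe of another, was not measured, and no sample value bears on it here.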

How the data were processed

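Per the labels' protocols, Kupffer cell RNA was profiled with the nCounter mouse miRNA panel. The deposited file used here is its reporter library file, which per the file headers has 8 columns with each record's class, target sequence, barcode, name and accession, and no sample values. The library file names neither the origin of its sequences nor a genome build. Depth per sample is unknown, and the planned comparison of times was not run.

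Names were split at the plus sign. GC content, seeds (bases 2 to 8), displaced seeds, mismatches without gaps, alternating runs and complementary stretches were computed with Python 3.11.15. The searches for displaced seeds, mismatches and complementary stretches were checked on simulated sequences, and alternating runs on short fixed strings. Names and sequences were matched to RefSeq tables of GRCm38.p6. 6 targets matched a mature sequence and 3 matched part of a hairpin, 7 in all. Members named are those on joint records, in shared seeds or near-identical pairs, at the extremes, or outside Sfmbt2. The words GCATGT and TGCATG and the composition classes were chosen after seeing the sequences. So were the non-members named and the examples of long common or complementary stretches. The sequence of 1 member is not reported here. The members and measures were chosen with earlier results of these data known.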

Additional observations from a re-analysis of the deposited data

How the results depend on the processing

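No paired analysis was possible because the panel definition carries no counts for the numbered pools. The member count was 33 by record, 39 by name and 28 within Sfmbt2. Within Sfmbt2, 14 members shared a seed, 14 had a displaced one and 4 pairs were near-identical. A seed of bases 2 to 7 gave 23 members with a common seed, or 69.7%, against 36.6% of the other mouse targets. With bases 2 to 8 these shares were 57.6% and 28.1%. A shift of 1 base alone lowered the members with a displaced seed from 18 to 6. The 5 near-identical pairs became 11 with 2 mismatches, 11 with 1 edit and a shift of up to 2 bases, and 10 with an identical stretch of 16 bases, a setting chosen after seeing the data. Among the other mouse targets, 23 pairs became 48, 25 and 24 at the same settings. Runs of at least 8 alternating bases covered a median of 86.4% of a target, against 87.0% with 6. Allowing G:U pairs raised the median complementary stretch from 12 to 18 bases, and in the other mouse targets from 8 to 11.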

Other observations

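Outside the set, 8 mouse targets were nearer to a member than to any other non-member, in mismatches from the 5′ end. The closest were miR-1187, at 4 from miR-466j, and miR-568, at 7 from miR-297b-5p, miR-297c and miR-466i. miR-574-3p was complementary to 11 members over 10 bases or more, and over 11 bases to, among others, miR-297b-5p, miR-466c-5p, miR-669a, miR-669e, miR-669o and the joint record of miR-467h. miR-574-5p, from the other arm of that hairpin, was 91.3% T and G, the highest share on the mouse panel. These targets were named after their values were seen.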
